A study of Oryza sativa with 17 samples.

Results

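The comparison described here is foliar iron (Fe) against water in grains of the black rice variety Nanheinuo (BR) at 10 days after flowering (DAF), and it is read across every gene with an FPKM of at least 1 in at least 2 of the 6 BR libraries. FPKM counts fragments relative to transcript length and to all mapped fragments, so levels can be compared between genes. 14217 of the 32657 genes in the table met that rule. The table held 17 grain libraries, of which 3 were BR control and 3 were BR Fe, and the other 11 were red rice (RR) at 15 and 20 DAF. Control plants were sprayed with deionized water and Fe plants with a 0.1% (w/v) solution of FeSO4·7H2O. Every spray, the water control included, also carried nicotinamide as an absorption enhancer and the surfactant Tween 80, so both groups had received those agents. Sprays went onto the leaves at the end of booting and again a week later. Each replicate was a set of pails of plants of a single variety. The p-values and standard errors of the fit used below rest on the spread between such sets. That spread was pooled for each gene over all 17 libraries in 6 groups, 11 libraries being red rice, and not over BR alone. RNA came from grains, and that grains were hulled is stated for the chemical assays and not for the RNA.

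Black rice grains owe their colour to anthocyanins laid down in the pericarp, the maternal tissue around the seed. These pigments are made from phenylalanine. Phenylalanine ammonia-lyase (PAL) and 4-coumarate-CoA ligase (4CL) prepare the activated phenolic acid, chalcone synthase (CHS) joins it to malonyl-CoA, and chalcone isomerase (CHI), flavanone 3-hydroxylase (F3H), dihydroflavonol reductase and anthocyanidin synthase (ANS) complete the coloured aglycone. F3H and ANS are oxygenases that carry ferrous iron in the active site. At the same stage the endosperm is filling with starch and storage protein from sucrose that leaves the maternal vascular trace and nucellus through SWEET exporters, and the embryo is starting to mature. Iron reaches cereal grains mainly as chelates with nicotianamine and mugineic acids, carried by YSL proteins, and is stored in vacuoles loaded by VIT proteins.

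The 6 libraries had FPKM sums from 639592 to 678882 and 22150 to 22981 genes above 0. The 11 matched endosperm markers, most of them glutelin and prolamin genes, were above 100 FPKM in every library, and their summed FPKM was 269573, 227441 and 232660 in the control and 225673, 252995 and 239195 in the Fe libraries (replicates 1, 2 and 3 in that order, as in all lists of values here). Of the 3 hull markers DL and OsMADS15 were at 0 in all 6 libraries and OsMADS1 was between 3.62 and 9.61 FPKM. Library Fe replicate 2 stood apart from its group. Over all members its log2(FPKM + 1) values correlated at 0.964 with control replicate 1 and at 0.939 and 0.929 with Fe replicates 1 and 3. On the first principal component, which held 49.4% of the variance, the controls lay at -14.7, -17 and -44.4 and the Fe libraries at 38.6, -8.08 and 45.6. Results are therefore given with each library shown, and with each library left out.

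66 genes were upregulated and 75 downregulated under Fe at the thresholds used for DEGs (adjusted p under 0.01, change of 1.5-fold or more). That is 0.464% and 0.528% of the 14217 genes. At an adjusted p below 0.05, the threshold used for a single gene below, 180 genes rose (1.27%) and 207 fell (1.46%), in all 387 (2.72%). These shares are the background for the counts of calls in every gene list below. Changes are differences in mean log2(FPKM + 1), given with their standard error, and adjusted p values are from limma fitted to all 17 libraries with Benjamini-Hochberg adjustment over 19774 genes. Adding 1 to the FPKM understates the change of low genes. The median change of all members was 0.04, and 54.4% of them had a change above 0. At an unadjusted p below 0.05, 1268 genes (8.92%) were higher and 1163 (8.18%) lower. In 1352 genes (9.51%) every Fe library lay above every control library, and in 883 (6.21%) every Fe library lay below, so non-overlap of 3 against 3 libraries was common and is not a call by itself. 370 of the 387 genes that passed did not overlap. 647 members reached an FPKM of 1 in libraries of a single group, which alone can make them differ, and 51 of the 180 rises and 58 of the 207 falls were among these. Called genes of this kind described below include AOS3, OsCIN5, OsMPH1, GRXC4, OsNramp1, OsAMT3;2, CHARK, CML24, OsC3H9, LOC4330037, LOC4325915, LOC4327827 and LOC4325030.

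**Figure D1:**
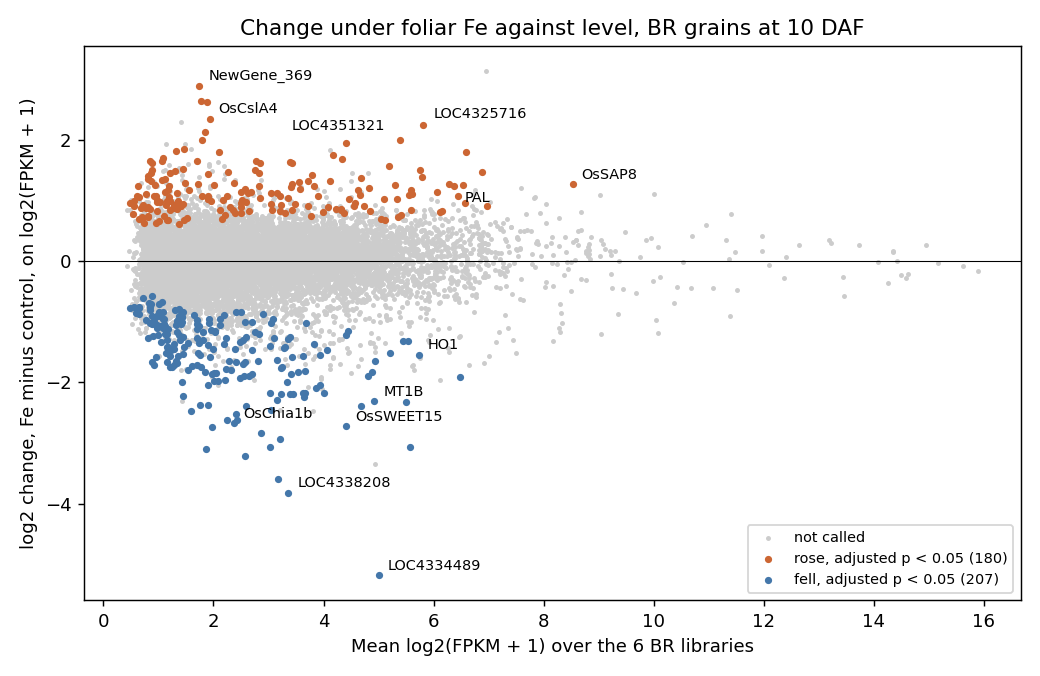
Change under Fe (Fe minus control, on log2(FPKM + 1)) against mean level for 14217 genes of BR grains at 10 DAF. Orange points are the 180 genes that rose and blue points the 207 that fell at an adjusted p below 0.05, and no called gene lies at the far right among the storage protein genes.

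The number of calls depended strongly on single libraries and on which libraries set the spread. With Fe replicate 2 left out, 309 genes were upregulated and 350 downregulated, and all 141 DEGs of the full set were among them. With Fe replicate 3 left out the counts were 15 and 12, without Fe replicate 1 they were 23 and 23, and without control replicate 2 they were 20 and 35. When the fit used only the 6 BR libraries no gene reached an adjusted p of 0.05 in limma (smallest 0.106), although 1666 had an unadjusted p below 0.05, and a robust prior in that fit, added after seeing the data, gave 3 rises and 1 fall. With the same variance assumed for every group 28 DEGs were left. The sign of all 387 changes was kept in each of these fits. 86 genes kept an adjusted p below 0.05 in the full fit and in all 6 fits with a library left out, 41 that rose and 45 that fell. All 86 had non-overlapping groups and an unadjusted p of at most 0.0122 in the fit of the BR libraries alone. Both were read on the same libraries that selected the 86, so they are no added support. In that fit none of the 86 passed an adjusted p of 0.05. 14 of the 86 have a short name, and each is described below.

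Among the 387 called genes, Fe replicate 2 usually lay between the control mean and the other Fe libraries. Taking the control mean as 0 and the mean of Fe replicates 1 and 3 as 1, its median position was 0.71 for genes that rose and 0.56 for genes that fell (0.75 for the 86). It was the Fe library nearest the controls in 124 of 180 rises and in 171 of 207 falls. For LOC4325716, LOC4351321 and PAL its position was 0.98, 0.99 and 1.19, and for OsSWEET15, HO1 and MT1B it was 0.31, 0.25 and 0.13.

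Of 8 named members of the phenylpropanoid entry and flavonoid lists 3 rose under Fe, PAL, Os4CL2 and OsANS2, and none fell, where 1.27% of all members rose and 1.46% fell. The median log2 change was 0.71 over the 5 entry genes and 1.04 over the 3 flavonoid genes, beside 0.04 over all members. Further genes are known as pathway enzymes only by the labels of the study, which chose them on these same samples, so their direction is not independent evidence.

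At the entry of the pathway, PAL (LOC4330034) was 56.8, 46 and 56.9 FPKM in the control libraries and 116, 140.1 and 125 in the Fe libraries (log2 change 1.24 ± 0.25, adjusted p = 0.0137). All 3 Fe libraries were more than 100 FPKM and no control passed 60. LOC4330037, which the study labels a PAL gene, was 0.774, 0.107 and 0.203 FPKM in the control libraries and 5.02, 2.71 and 3.68 in the Fe libraries (log2 change 1.82 ± 0.23, adjusted p = 3.53e-04). LOC4338861, labelled PAL as well, was 1.63, 0.556 and 0.507 FPKM in the control libraries and 4.75, 3.53 and 6.41 in the Fe libraries (log2 change 1.66 ± 0.23, adjusted p = 6.81e-04). The last of them, LOC4330036, was 57.3, 43.5 and 79.6 against 93.7, 144 and 106 FPKM without overlap and did not pass (adjusted p = 0.147). The 4 genes differed widely in level. In each the Fe libraries were all above the controls, as in 9.51% of all members, and 3 of the 4 are known as PAL only by labels that the study chose on these samples. Os4CL2 was 7.0, 5.58 and 8.75 FPKM in the control libraries and 11.5, 19.6 and 13.2 in the Fe libraries (log2 change 0.95 ± 0.23, adjusted p = 0.0418). Os4CL3 was 5.57, 3.62 and 6.7 against 8.74, 9.48 and 8.98 FPKM and Os4CL5 3.18, 1.28 and 1.5 against 2.0, 3.41 and 2.58 FPKM, and neither passed (adjusted p = 0.463 and 0.857), while Os4CL4 had a log2 change of -0.02. A single 4CL gene passed.

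In the flavonoid section, CHS1, the entry enzyme of the branch, was 185, 97.1 and 213 FPKM in the control libraries and 274, 464 and 262 in the Fe libraries and did not pass (log2 change 1.04 ± 0.33, adjusted p = 0.141). Its highest control, replicate 3, lay below its lowest Fe library. CHI (LOC4334588) was 23.7, 20.1 and 28 against 31.7, 42.7 and 28.2 FPKM (log2 change 0.49 ± 0.66, adjusted p = 0.908). LOC4351321, labelled CHI by the study, had the clearest rise of the section at 13.1, 6.36 and 11.2 FPKM in the control libraries and 35.4, 40.3 and 47.6 in the Fe libraries (log2 change 1.95 ± 0.25, adjusted p = 4.37e-04). LOC4349607, also labelled CHI, was 22.9, 7.2 and 10.2 against 27.6, 28.5 and 30.1 FPKM (adjusted p = 0.0882). LOC9270463, labelled F3H, was 69.5, 40.9 and 72.9 FPKM in the control libraries and 109, 156 and 115 in the Fe libraries (log2 change 1.07 ± 0.24, adjusted p = 0.024). LOC4332919, labelled flavonoid 3',5'-hydroxylase, was 2.3, 2.49 and 3.86 against 6.83, 5.33 and 5.47 FPKM (log2 change 0.84 ± 0.17, adjusted p = 0.0115). Of the last step, LOC4325716, labelled ANS, was 51.1, 13.4 and 21.7 FPKM in the control libraries and 104, 119 and 142 in the Fe libraries (log2 change 2.24 ± 0.31, adjusted p = 6.81e-04). OsANS2 was far lower in level, at 2.57, 0.714 and 0.939 FPKM in the control libraries and 4.35, 4.78 and 6.66 in the Fe libraries (log2 change 1.44 ± 0.22, adjusted p = 0.00127). In both ANS genes control replicate 1 was the highest control and Fe replicate 3 the highest Fe library.

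Fe replicate 2, the library that resembled the controls over all genes, took different places among these pigment genes. It was the lowest Fe library, though above every control, for LOC4330037, LOC4338861 and LOC4332919 (positions 0.74, 0.71 and 0.81). It was the highest of all 6 libraries for PAL, Os4CL2, CHS1, CHI and LOC9270463, and lay between the other Fe libraries for LOC4325716, LOC4351321 and OsANS2. The mean of the flavonoid list, as a deviation from its mean over the 6 libraries on the log2 scale, was -0.20, -0.94 and -0.35 in the control and 0.32, 0.75 and 0.42 in the Fe libraries. LOC4330037, LOC4338861, LOC4351321, LOC4325716 and OsANS2 kept an adjusted p below 0.05 in all 6 fits that left out 1 BR library. PAL, LOC9270463 and LOC4332919 did not pass without control replicate 2 or Fe replicate 1 or 3 (adjusted p from 0.056 to 0.189 in those fits). Os4CL2 did not pass without control replicate 1 or 2 or Fe replicate 1, 2 or 3 (adjusted p from 0.0529 to 0.247 in those fits).

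**Figure D2:**
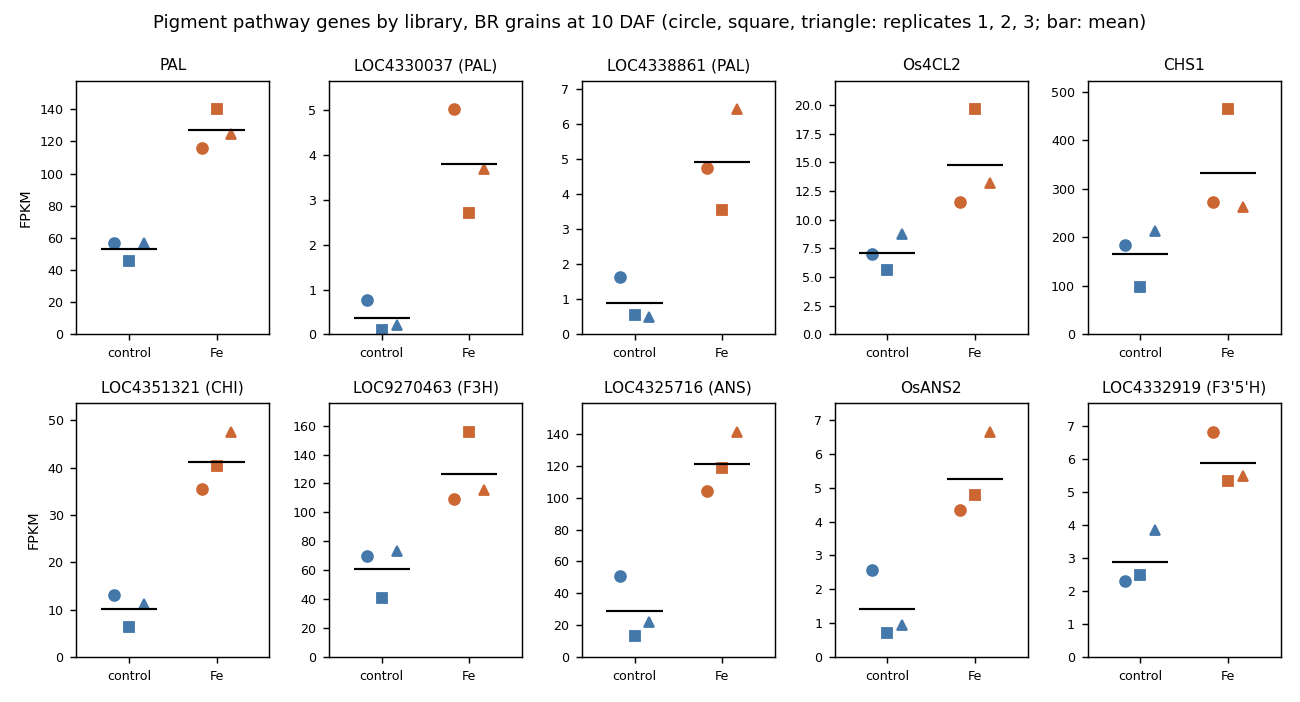
FPKM of 10 named or study-labelled pigment pathway genes in the 6 BR libraries, each panel with its own axis from 0. Circles, squares and triangles are replicates 1, 2 and 3, bars are group means, and in these 10 panels, chosen with the values known, the 3 Fe libraries lie above the 3 controls, as in 9.51% of all members. Os4CL5 and Os4CL4, which did not separate in this way, are not plotted. Brackets give the labels of the study.

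4 genes outside the entry and flavonoid lists are given singly and form no tested group. ACLB-1, a subunit of the ATP-citrate lyase that makes cytosolic acetyl-CoA, the precursor of malonyl-CoA, was 3.23, 3.67 and 3.99 FPKM in the control libraries and 9.85, 9.14 and 10.9 in the Fe libraries (log2 change 1.25 ± 0.24, adjusted p = 0.0081). Its replicates were tight and Fe replicate 2 lay with the other Fe libraries. On the lignin side, OsCAD3, a cinnamyl alcohol dehydrogenase, was 10.6, 4.74 and 11 FPKM in the control libraries and 18, 28 and 17.9 in the Fe libraries (log2 change 1.24 ± 0.26, adjusted p = 0.0176). SNL6, a cinnamoyl-CoA reductase-like protein, was 3.48, 2.69 and 3.26 FPKM in the control libraries and 6.29, 7.33 and 6.51 in the Fe libraries (log2 change 0.90 ± 0.15, adjusted p = 0.0041). COA20 (ROMT-15), of the caffeoyl-CoA O-methyltransferase family, was 8.8, 7.36 and 6.02 FPKM in the control libraries and 22.7, 16.9 and 19.8 in the Fe libraries (log2 change 1.31 ± 0.29, adjusted p = 0.0239). The other lignin genes on the list did not pass. 1 of 7 members rose, the list median was 0.10 (0.01 without control replicate 3 and 0.31 without Fe replicate 2), and OsCAD1, OsHCT1 and OsCOMT were 10.8, 10.5 and 10.7 against 16.9, 11.5 and 19.2 FPKM, 13.5, 19.6 and 15.7 against 22.7, 23.7 and 18.9 FPKM and 59.6, 46.6 and 42.2 against 53, 54.5 and 49.7 FPKM. SNL6 kept an adjusted p below 0.05 in all 6 fits that left out 1 BR library. ACLB-1 and OsCAD3 did not pass without control replicate 2 or Fe replicate 1 or 3 (adjusted p from 0.059 to 0.138 in those fits). COA20 did not pass without control replicate 2 or 3 or Fe replicate 1 or 3 (adjusted p from 0.0959 to 0.183 in those fits).

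The largest rise among genes with a short name was that of OsCslA4, a member of the CslA family of mannan synthases that build cell wall mannans. It was 1.46, 0.333 and 0.468 FPKM in the control libraries and 7.32, 6.23 and 9.6 in the Fe libraries (log2 change 2.35 ± 0.21, adjusted p = 1.26e-05). Fe and control libraries were separated by a wide gap and the Fe libraries were close to each other. It was the single riser of 16 cellulose and hemicellulose synthesis genes, whose median change was -0.02. mfs1 was 37.2, 7.73 and 27.1 FPKM in the control libraries and 77, 77.8 and 96.1 in the Fe libraries (log2 change 2.00 ± 0.41, adjusted p = 0.0148), with control replicate 2 far below the other controls. URH2, a nucleoside hydrolase, was 5.85, 6.12 and 6.39 FPKM in the control libraries and 15.1, 11.8 and 14.1 in the Fe libraries (log2 change 1.04 ± 0.16, adjusted p = 0.00146). OsCslA4 and URH2 kept an adjusted p below 0.05 in all 6 fits that left out 1 BR library. mfs1 did not pass without control replicate 2 or Fe replicate 1 or 3 (adjusted p from 0.0825 to 0.134 in those fits).

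Among hormone genes, OsRR6, a type-A response regulator that cytokinin induces and that dampens cytokinin signalling, was 4.0, 3.48 and 2.07 FPKM in the control libraries and 18.6, 8.95 and 9.16 in the Fe libraries (log2 change 1.62 ± 0.27, adjusted p = 0.00304). All Fe libraries were above 8 FPKM and all controls at or below 4. CHARK, a kinase with the cytokinin-binding CHASE domain, was 0.145, 0.0745 and 0.0132 FPKM in the control libraries and 0.733, 1.07 and 1.29 in the Fe libraries (log2 change 0.91 ± 0.13, adjusted p = 0.00107). The other 7 response regulators on the list did not pass, and the list median was 0.16. RR21 and RR24 did not overlap between groups, at 5.28, 5.18 and 7.71 against 10.3, 8.6 and 8.44 FPKM and 4.29, 4.57 and 3.54 against 6.65, 5.81 and 5.25 FPKM (adjusted p = 0.174 and 0.331). CYCD2-2, a D-type cyclin that drives entry into the cell cycle, was 1.58, 2.98 and 2.52 FPKM in the control libraries and 8.38, 3.48 and 11.5 in the Fe libraries (log2 change 1.28 ± 0.30, adjusted p = 0.0354), and KRP3, an inhibitor of cyclin-dependent kinases, was 2.09, 2.55 and 3.65 FPKM in the control libraries and 0.81, 1.14 and 0.97 in the Fe libraries (log2 change -0.92 ± 0.23, adjusted p = 0.0474). These were the 2 called genes of 29 cyclins, kinases and inhibitors. IAA29, a repressor of auxin response, was 2.2, 3.9 and 3.66 FPKM in the control libraries and 1.26, 0.564 and 0.548 in the Fe libraries (log2 change -1.25 ± 0.18, adjusted p = 9.35e-04), the single call among 36 auxin response genes. OsRR6, CHARK and IAA29 kept an adjusted p below 0.05 in all 6 fits that left out 1 BR library. CYCD2-2 did not pass without control replicate 1, 2 or 3 or Fe replicate 1 or 3 (adjusted p from 0.0785 to 0.305 in those fits). KRP3 did not pass without control replicate 2 or 3 or Fe replicate 1 or 3 (adjusted p from 0.169 to 0.285 in those fits).

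3 zinc finger genes rose of 58 C3H and SAP members, whose median was 0.13, where 1.27% of all members rose. OsSAP8, a stress-associated protein of the A20/AN1 type and one of the most abundant called genes, was 302, 240.4 and 182 FPKM in the control libraries and 756, 365 and 676 in the Fe libraries (log2 change 1.27 ± 0.31, adjusted p = 0.0392). Fe replicate 2 was the Fe library nearest the controls. OsC3H9 was 0.305, 0.0306 and 0 FPKM in the control libraries and 2.67, 0.396 and 4.46 in the Fe libraries (log2 change 1.46 ± 0.32, adjusted p = 0.0215) and OsC3H49 was 11.9, 14.8 and 14.9 against 31.5, 19.4 and 27.8 FPKM (log2 change 0.85 ± 0.19, adjusted p = 0.0254). OsDjA6, a J-domain co-chaperone, was 12.4, 15.3 and 19 FPKM in the control libraries and 45.9, 23.8 and 42.3 in the Fe libraries (log2 change 1.17 ± 0.30, adjusted p = 0.0497). Signalling genes that rose at smaller size were the SnRK2 kinase OsSAPK4 at 22.5, 17.5 and 16 against 40.2, 34.4 and 32.5 FPKM, the phosphatase OsPP2C58 at 13.4, 11.7 and 13.7 against 27.3, 17.1 and 30.3 FPKM, the calcium sensor CBL2 at 26.4, 19.9 and 29.6 against 38.1, 45 and 41 FPKM and the calmodulin-like CML24 at 0.336, 0.158 and 0.0376 against 1.46, 0.885 and 2.43 FPKM. Their log2 changes were 0.91, 0.86, 0.70 and 1.10. CML24 did not pass without Fe replicate 3 (adjusted p = 0.0542 in that fit). OsSAP8, OsC3H9, OsSAPK4 and OsPP2C58 did not pass without control replicate 2 or 3 or Fe replicate 1 or 3 (adjusted p from 0.0615 to 0.298 in those fits). OsC3H49 and CBL2 did not pass without control replicate 1 or 2 or Fe replicate 1 or 3 (adjusted p from 0.0597 to 0.273 in those fits). OsDjA6 did not pass without control replicate 1, 2 or 3 or Fe replicate 1 or 3 (adjusted p from 0.0627 to 0.341 in those fits).

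Among sugar genes, 2 SWEET transporters and the cell wall invertase gene OsCIN5 fell. OsSWEET15, a sucrose exporter of the nucellus and aleurone that supplies the filling endosperm, was 45.6, 66.3 and 50.4 FPKM in the control libraries and 3.91, 24.5 and 3.48 in the Fe libraries (log2 change -2.72 ± 0.48, adjusted p = 0.00462). Fe replicate 2 lay between the controls and the other Fe libraries, which were both below 4 FPKM. OsSWEET6a was 15.6, 12.6 and 17 FPKM in the control libraries and 5.27, 11 and 1.79 in the Fe libraries (log2 change -1.43 ± 0.33, adjusted p = 0.0304), again with Fe replicate 2 nearest the controls. 12 of 13 sugar transporters had a negative change, 2 fell and the median was -0.59. Of all members 1.46% fell, and 54.4% had a change above 0. The sucrose transporter OsSUT1 was 10.6, 21.7 and 30.9 against 11.1, 11.8 and 7.68 FPKM (adjusted p = 0.248), OsSWEET11 114, 181 and 112 against 95.3, 112 and 63 FPKM (0.712) and the hexose transporter OsMST3 7.99, 4.5 and 3.04 against 1.38, 3.51 and 0.589 FPKM (0.114), none of which passed. OsSWEET14 and OsSWEET4 showed no separation of the groups at all, at 30.5, 1.11 and 13.3 against 2.17, 23.9 and 7.85 FPKM and 13.7, 17 and 22.6 against 21.7, 24.9 and 13.9 FPKM. The summed FPKM of the 5 markers of nucellus and vascular trace, to which OsSWEET15, OsSWEET11, OsSWEET14, OsSUT1 and OsMADS29 belong, was 202, 272 and 208 in the control and 113, 174 and 82.9 in the Fe libraries (exact two-sided permutation p = 0.1, the smallest that 3 against 3 allows). In RNA of whole grains fewer cells of a type and less RNA per cell cannot be told apart.

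OsCIN5, a cell wall invertase that splits sucrose, was low and fell further, at 1.03, 1.12 and 1.19 FPKM in the control libraries and 0.154, 0.198 and 0.115 in the Fe libraries (log2 change -0.87 ± 0.12, adjusted p = 9.35e-04). Both groups were tight, and Fe replicate 2 lay with its group. It was the only call among 30 genes of sucrose and hexose metabolism, of which 14 were higher and 16 lower. OsCIN4 and OsCIN2 had higher means under Fe and did not pass (adjusted p = 0.194 and 0.214 in limma). OsCIN4 was 0.18, 0.662 and 0.31 against 1.31, 0.733 and 2.03 FPKM. OsCIN2 was 2.06, 3.01 and 0.299 against 11.4, 5.21 and 1.5 FPKM, with overlap. The fall of OsCIN5 was thus not shared by these genes. OsTPP9, a trehalose-6-phosphate phosphatase, was 5.18, 9.77 and 16.2 FPKM in the control libraries and 1.35, 4.85 and 1.42 in the Fe libraries (log2 change -1.70 ± 0.42, adjusted p = 0.042), the 1 call among 8 such genes (median -0.41). BGLU16 was 4.93, 8.04 and 13.8 against 2.4, 5.04 and 1.85 FPKM (log2 change -1.25 ± 0.30, adjusted p = 0.0404), the 1 call among 15 beta-glucosidases (median -0.49), and its groups overlapped. OsCIN5 kept an adjusted p below 0.05 in all 6 fits that left out 1 BR library. OsSWEET15 did not pass without Fe replicate 1 (adjusted p = 0.05 in that fit, at the threshold). OsSWEET6a did not pass without control replicate 1, 2 or 3 or Fe replicate 1 or 3 (adjusted p from 0.0584 to 0.151 in those fits). OsTPP9 and BGLU16 did not pass without control replicate 2 or 3 or Fe replicate 1 or 3 (adjusted p from 0.148 to 0.326 in those fits).

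**Figure D3:**
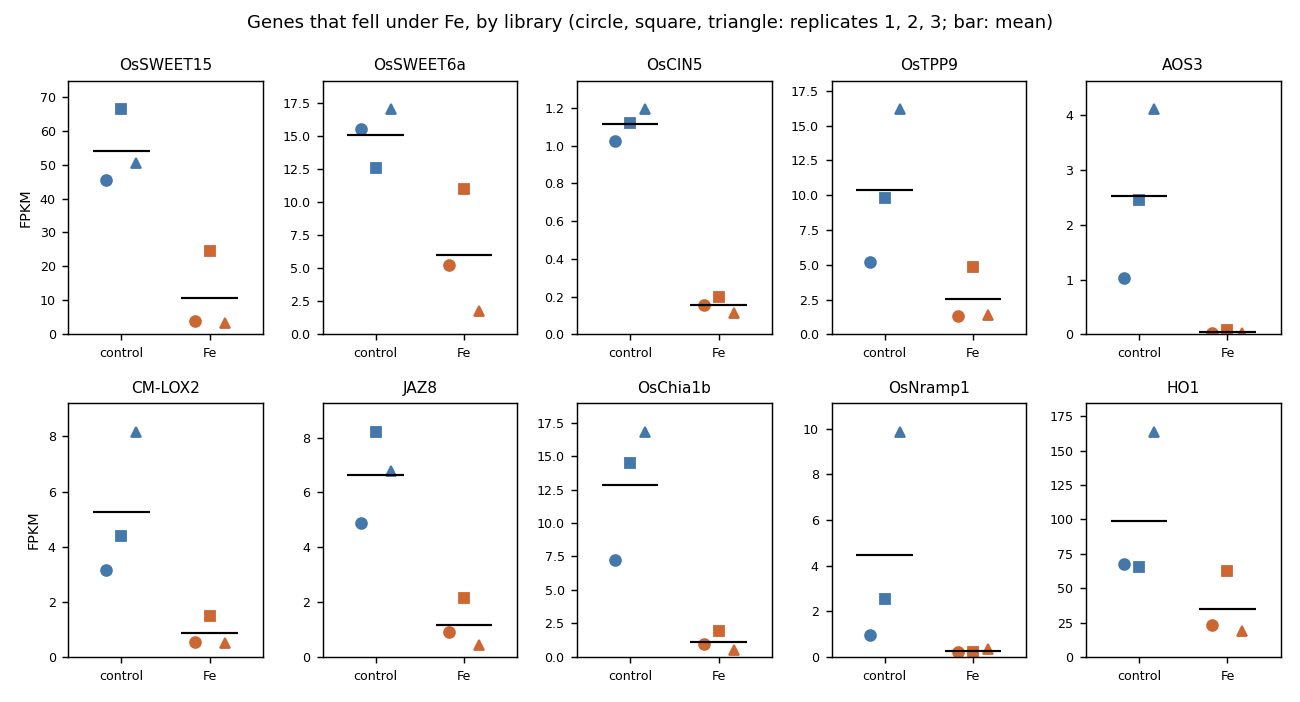
FPKM of 10 genes that fell under Fe, in the 6 BR libraries, each panel with its own axis from 0. Circles, squares and triangles are replicates 1, 2 and 3 and bars are group means, and Fe replicate 2 (square) lies nearest the controls for OsSWEET15, OsSWEET6a and HO1 but with its group for OsCIN5 and OsNramp1.

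Of 10 jasmonate synthesis genes 2 fell (median 0.10), where 1.46% of all members fell. 1 of 13 JAZ genes and 1 of 6 named chitinases fell as well. Jasmonates are made from lipids by lipoxygenases and allene oxide synthase, and JAZ proteins repress the response until the hormone removes them. AOS3, an allene oxide synthase, was 1.02, 2.45 and 4.11 FPKM in the control libraries and 0.0207, 0.0762 and 0.0214 in the Fe libraries (log2 change -1.66 ± 0.24, adjusted p = 9.35e-04). Every Fe library was below 0.1 FPKM and every control at or above 1. CM-LOX2, a chloroplast lipoxygenase, was 3.15, 4.4 and 8.18 FPKM in the control libraries and 0.555, 1.49 and 0.501 in the Fe libraries (log2 change -1.72 ± 0.25, adjusted p = 0.00103). JAZ8 (OsTIFY10c) was 4.88, 8.22 and 6.77 FPKM in the control libraries and 0.925, 2.14 and 0.422 in the Fe libraries (log2 change -1.87 ± 0.27, adjusted p = 9.85e-04). The fall was not shared by the whole family or pathway. The other 12 JAZ and TIFY genes did not pass (median of the list 0.00), nor did the other 8 synthesis genes, and AOS1 was higher in every Fe library at 0.445, 0.434 and 0.563 against 0.806, 1.39 and 1.11 FPKM (adjusted p = 0.109). OsChia1b, a chitinase that digests fungal cell walls, was 7.24, 14.5 and 16.8 FPKM in the control libraries and 0.972, 1.91 and 0.521 in the Fe libraries (log2 change -2.68 ± 0.43, adjusted p = 0.0026), and LOC4338208, labelled a chitinase by the study, was 25.5, 27.9 and 74.5 FPKM in the control libraries and 1.55, 2.6 and 1.22 in the Fe libraries (log2 change -3.82 ± 0.75, adjusted p = 0.0112). OsChia1a did not pass, at 1.94, 3.03 and 17.6 against 0.0996, 0.339 and 0.215 FPKM (adjusted p = 0.133), with controls that ranged widely. LOC4348631, whose symbol is chitinase, was higher in every Fe library at 0.427, 0.413 and 0.902 against 1.38, 0.905 and 1.2 FPKM and did not pass. Of 6 named chitinases 1 fell, 3 had a change above 0 and 3 below 0, and the median was -0.31. That median was -1.58 with a filter at an FPKM of 5, -0.08 without control replicate 1, -0.62 without control replicate 3, -0.61 without Fe replicate 1 and -0.16 without Fe replicate 3. AOS3, CM-LOX2, OsChia1b and LOC4338208 shared with the summed embryo markers the order of the controls and the highest Fe library. Control replicate 1 was the lowest and 3 the highest control, and Fe replicate 2 was the highest Fe library. The markers summed to 453, 838 and 1451 in the control and 292, 612 and 191 in the Fe libraries. Across groups the order differed, because Fe replicate 2 was above control replicate 1 in the markers and below every control in these genes.

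OsMPH1, a MYB factor and another gene with the order of the embryo markers within each group, was 1.91, 3.96 and 4.79 FPKM in the control libraries and 0.204, 0.597 and 0.131 in the Fe libraries (log2 change -1.75 ± 0.26, adjusted p = 0.00123). OsWRKY62, a WRKY factor of the pathogen response, was 7.21, 4.95 and 7.16 against 3.02, 1.76 and 1.07 FPKM (log2 change -1.37 ± 0.34, adjusted p = 0.0452). OsMPH1 and OsWRKY62 were the 2 calls among 16 WRKY, NAC and MYB factors (median -0.50), where 1.46% of all members fell. OsNAC6 and OsMyb4 did not overlap and did not pass, at 43.2, 53.5 and 73 against 35.8, 39.1 and 23.8 FPKM and 4.25, 5.19 and 5.97 against 2.34, 3.02 and 0.864 FPKM (adjusted p = 0.182 and 0.167). PSK4, a precursor of the peptide hormone phytosulfokine, was 27.6, 29.1 and 29.9 FPKM in the control libraries and 6.3, 12.8 and 2.41 in the Fe libraries (log2 change -2.09 ± 0.39, adjusted p = 0.00688). Its 3 controls were within 3 FPKM of each other while its Fe libraries spread more. CML31, a calmodulin-like calcium sensor, was 11.9, 9.13 and 19.2 FPKM in the control libraries and 1.51, 4.26 and 0.36 in the Fe libraries (log2 change -2.40 ± 0.42, adjusted p = 0.00489). GRXC4, a glutaredoxin, was 2.26, 2.19 and 1.7 FPKM in the control libraries and 0.208, 0.862 and 0 in the Fe libraries (log2 change -1.21 ± 0.20, adjusted p = 0.00244), the single call among 30 thioredoxins and glutaredoxins. OsABCG36, a transporter of the ABC family, was 3.5, 4.49 and 3.1 against 1.53, 1.8 and 0.627 FPKM (log2 change -1.04 ± 0.21, adjusted p = 0.0145). AOS3, CM-LOX2, JAZ8, OsChia1b, OsMPH1 and GRXC4 kept an adjusted p below 0.05 in all 6 fits that left out 1 BR library. CML31 did not pass without Fe replicate 3 (adjusted p = 0.0575 in that fit). PSK4 did not pass without control replicate 2 or Fe replicate 3 (adjusted p from 0.0516 to 0.0645 in those fits). OsABCG36 did not pass without control replicate 2 or Fe replicate 1 or 3 (adjusted p from 0.0545 to 0.163 in those fits). LOC4338208 did not pass without control replicate 2 or 3 or Fe replicate 1 or 3 (adjusted p from 0.0549 to 0.108 in those fits). OsWRKY62 did not pass without control replicate 1, 2 or 3 or Fe replicate 1 or 3 (adjusted p from 0.0851 to 0.363 in those fits).

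Of 19 iron handling genes among the members, 1 fell and none rose, and the median change was 0.06, with both signs over the alternative settings (-0.09 to 0.16). At an unadjusted p below 0.05 in limma there were 5, OsNramp1, OsbHLH063, YSL9 and OsYSL2 with lower and OsNAAT1 with higher means under Fe, where 8.18% of all members were lower and 8.92% higher at that threshold. OsNramp1, a plasma membrane transporter of iron, manganese and cadmium, was the gene that fell, at 0.956, 2.54 and 9.88 FPKM in the control libraries and 0.227, 0.205 and 0.352 in the Fe libraries (log2 change -1.75 ± 0.42, adjusted p = 0.0372). The Fe libraries were all below 0.4 FPKM, and the controls ranged widely with replicate 3 the highest. OsNramp1 did not pass without control replicate 2 or 3 or Fe replicate 1 or 3 (adjusted p from 0.0885 to 0.189 in those fits).

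Chelator genes did not pass. OsNAAT1, nicotianamine aminotransferase of the mugineic acid pathway, was 1.18, 0.414 and 0.0927 against 0.56, 4.29 and 2.39 FPKM (log2 change 1.02 ± 0.36, adjusted p = 0.189), and OsNAS2, nicotianamine synthase, was 1.59, 1.88 and 0.817 against 2.48, 1.59 and 0.687 FPKM (log2 change 0.06 ± 0.23, adjusted p = 1). The YSL transporters, which carry metal-nicotianamine chelates, went both ways. OsYSL2 was the most expressed at 20.1, 21.6 and 35.4 against 14.2, 20.9 and 17.9 FPKM (log2 change -0.49), YSL9 was lower in every Fe library at 2.05, 2.27 and 4.03 against 1.72, 1.72 and 1.27 FPKM (-0.53), OsYSL13 had 0.45, OsYSL14 0.44, YSL16 0.17, YSL6 -0.32 and YSL12 0.06. The adjusted p of these 7 was 0.242 or more. The vacuolar iron transporters OsVIT1 and OsVIT2 were 3.81, 2.79 and 4.94 against 2.6, 6.79 and 2.16 FPKM and 0.373, 0.784 and 2.39 against 1.63, 0.952 and 1.59 FPKM. Their groups overlapped. Among regulators, IDEF1 was 5.66, 7.45 and 8.89 against 11.5, 8.33 and 11.3 FPKM and OsbHLH063, whose other symbol in the reference is IRO3, a repressor of iron deficiency genes, was 6.0, 7.49 and 10.4 against 3.73, 6.06 and 4.67 FPKM (adjusted p = 0.493 and 0.222). The other Nramp genes, OsNramp2, OsNramp3 and NRAMP6, had log2 changes of 0.03, 0.06 and 0.05, and the genes listed as tom1 and tom2, matched by symbol alone, had -0.17 and 0.11. Standard errors in the list ran from 0.16 (YSL16) to 0.42 (OsNramp1).

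HO1, heme oxygenase, which opens heme to release its iron and starts the phytochrome chromophore, is outside that list and was 67.4, 65.1 and 164 FPKM in the control libraries and 23.2, 62.7 and 18.5 in the Fe libraries (log2 change -1.54 ± 0.38, adjusted p = 0.0404). Fe replicate 2 was just below the lowest control. Metallothioneins, small cysteine-rich proteins that bind zinc and copper, were split (1 of 6 fell, median -1.18). MT1B was 54.8, 47.9 and 112 FPKM in the control libraries and 5.17, 49.1 and 7.1 in the Fe libraries (log2 change -2.32 ± 0.52, adjusted p = 0.0264), with Fe replicate 2 inside the control range, MT1A was 34.3, 35.5 and 60.9 against 8.62, 27 and 5.28 FPKM (adjusted p = 0.0733) and MT21A 119, 217 and 379 against 48.4, 208 and 28.1 FPKM (0.147). MT2B went the other way at 1.32, 2.71 and 0.379 against 18.7, 6.17 and 2.47 FPKM (0.051) and MT2C varied over a wide range at 24.9, 8.67 and 2.14 against 28.8, 96.7 and 11.3 FPKM. None of 17 zinc, copper and manganese transporters passed, with changes from -1.09 (OsZIP10) to 0.77 (OsMTP4). MT1B and HO1 did not pass without control replicate 2 or 3 or Fe replicate 1 or 3 (adjusted p from 0.07 to 0.322 in those fits).

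**Figure D4:**
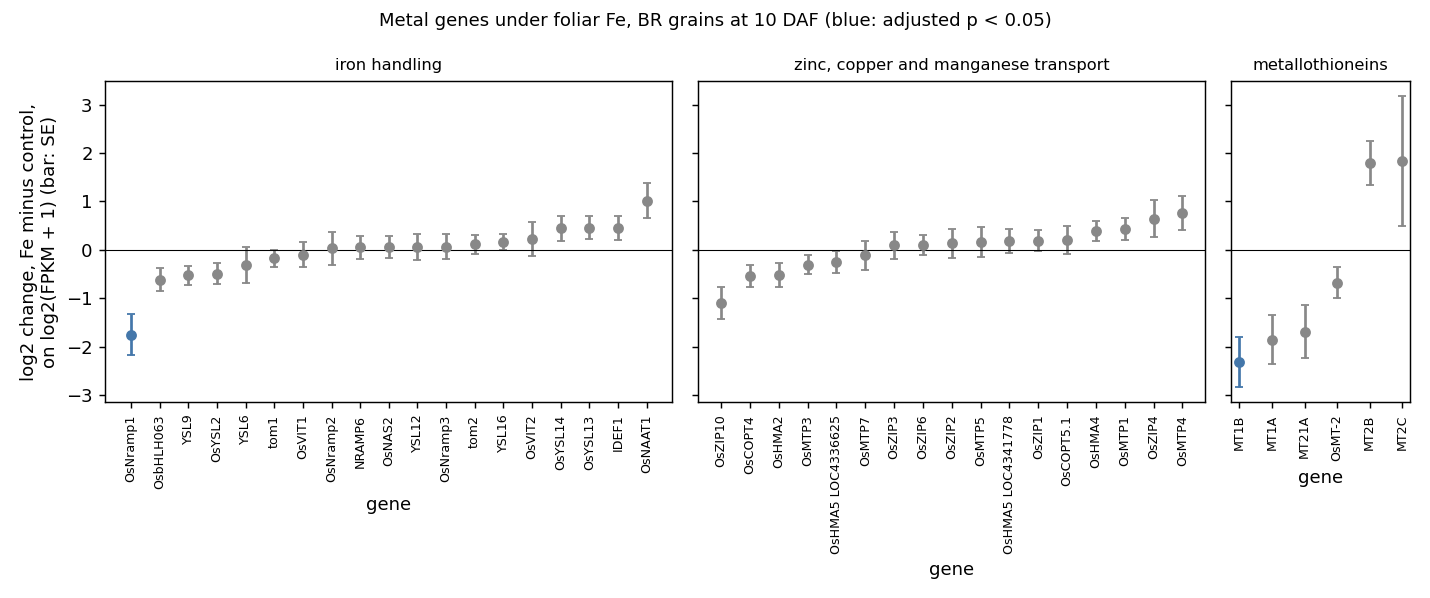
Change under Fe with its standard error for 19 iron handling genes, 17 transporters of zinc, copper and manganese and 6 metallothioneins. Blue points, OsNramp1 and MT1B, passed an adjusted p of 0.05, and none of the others did.

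Storage and starch genes, which hold a large part of the summed FPKM of these grains, did not pass in either direction. The 10 most abundant genes took 45.9 to 51.3% of the summed FPKM of a library. Among them the prolamin gene LOC4342688 was 71042, 58837 and 63828 against 51436, 72126 and 51208 FPKM, GLUA-1 58795, 45148 and 51684 against 45363, 53169 and 48829 FPKM and GLUA-2 43375, 34972 and 34459 against 36635, 38110 and 34949 FPKM, with log2 changes of -0.16, -0.07 and -0.03 and standard errors of 0.55, 0.57 and 0.50. The 13 storage protein genes had a median of 0.01 and a summed FPKM of 294247, 248158 and 246197 in the control and 250109, 279265 and 258342 in the Fe libraries (exact permutation p = 1). Of 10 starch synthesis genes none passed, and 4 were higher in every Fe library, beside 9.51% of all members. These were the granule-bound synthase GBSS-I at 1609, 1632 and 1555 against 2667, 2197 and 2437 FPKM, the soluble synthase SS1 at 315, 249.5 and 177 against 408, 446 and 339 FPKM, the ADP-glucose pyrophosphorylase subunit OsAPS2 at 1338, 1671 and 1305 against 1950, 1686 and 2114 FPKM and SSII-1 at 3.15, 5.5 and 5.35 against 8.5, 5.7 and 9.38 FPKM. Their adjusted p values were 0.593, 0.149, 0.749 and 0.339. The summed FPKM of the list was 5774, 7327 and 6467 in the control and 9239, 7521 and 8527 in the Fe libraries (exact two-sided permutation p = 0.1, the smallest possible).

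Several groups of genes differed as much within a treatment as between treatments, and the order of the libraries was the same in more than one of them. Of the 9 seed maturation genes, which encode dehydrins, LEA proteins and oleosin made as the embryo prepares for drying, all 9 had a negative change (median -1.34) and 1, the dehydrin gene OsDhn1, fell. OsDhn1 was 13.4, 30.4 and 28.6 FPKM in the control libraries and 7.65, 9.58 and 2.31 in the Fe libraries (log2 change -1.82 ± 0.44, adjusted p = 0.0402). OsDhn1 did not pass without control replicate 2 or 3 or Fe replicate 1 or 3 (adjusted p from 0.114 to 0.359 in those fits). The LEA gene Osem was 109.8, 219 and 439 against 62.3, 154 and 41.1 FPKM, RAB21 63.2, 125 and 314 against 21.7, 109 and 16.4 FPKM and the oleosin gene OLE18 278, 488 and 676 against 205, 344 and 132 FPKM (adjusted p = 0.119, 0.11 and 0.383). The summed FPKM of the list was 587, 1144 and 2124 in the control and 379.7, 872 and 255 in the Fe libraries (exact permutation p = 0.2). Control replicate 3 was the highest, Fe replicates 1 and 3 the lowest, and Fe replicate 2 lay between control replicates 1 and 2. The embryo markers, of which 8 of 10 were matched and OSH1 and RAB16D were at or near 0, summed to 453, 838 and 1451 in the control and 292, 612 and 191 in the Fe libraries. Small heat shock genes had the same order (14 of 15 negative, none passed, median -0.84), with a summed FPKM of 160.0, 253 and 469.9 in the control and 126, 225 and 75 in the Fe libraries (exact permutation p = 0.2). In the embryo markers control replicate 1 was the lowest and 3 the highest control, and Fe replicate 2 was the highest Fe library. That order within each group, with Fe replicates 1 and 3 in either order and whatever the order across groups, was found in 73 of the 207 genes that fell (35.3%). It was found in 2 of the 180 that rose (1.1%) and in 1800 of all 14217 members (12.7%). In a fall the highest Fe library is the one nearest the controls, which was Fe replicate 2 in 171 of 207 falls. In a rise it is the one farthest from them, which was Fe replicate 2 in 32 of 180 rises. The shares among falls and rises thus follow in part from the place of Fe replicate 2 among called genes. Control replicate 3 was the highest control in 142 of the falls (68.6%) and in 6695 members (47.1%). The 73 include AOS3, CM-LOX2, OsMPH1, OsChia1b, OsCIN5, OsTPP9, PSK4, OsHAK27, OsPHR3, LOC4338208, LOC4334489 and LOC4351911, and in OsNramp1, HO1 and MT1B control replicate 3 was the highest control. The part of embryo RNA in these falls was not tested.

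Photosynthesis genes were mostly higher under Fe. Of 9 nuclear genes 8 were higher under Fe with a median of 1.49, and none passed. The light-harvesting gene CAB1R was 0.138, 0.163 and 0.316 against 10.6, 1.12 and 7.44 FPKM, LHCP 0.632, 1.24 and 1.79 against 14.5, 1.89 and 5.44 FPKM and the Rubisco small subunit gene RBCS1 0.151, 0.404 and 1.22 against 14.5, 0.932 and 1.63 FPKM (adjusted p = 0.106, 0.386 and 0.581). Fe replicate 1 was the highest library in these 3 genes. Without it the list median was 0.69, and with a pseudocount of 0.1 it was 2.15. The list deviated by -0.94, -0.68 and -0.37 in the control and 1.85, -0.32 and 0.45 in the Fe libraries, so that Fe replicate 2 lay below the mean of the 6 libraries. The 9 nuclear genes summed to 5.91, 9.18 and 13.5 FPKM in the control and 94.4, 13.1 and 31.4 in the Fe libraries, with overlap (exact permutation p = 0.2). The 5 green pericarp markers that were matched of 8 summed to 2.01, 3.14 and 5.38 in the control and 61, 5.67 and 18.5 in the Fe libraries (exact permutation p = 0.1, the smallest possible). Among these markers CAB2R was 0.575 FPKM in Fe replicate 2, below every control. Cytosolic ribosomal protein genes marked yet another axis. All 24 had a negative change (median -0.32), none passed, and the list deviated by 0.01, 0.64 and -0.14 in the control and 0.27, -0.74 and -0.04 in the Fe libraries, so that Fe replicate 2 was the lowest and control replicate 2 the highest of all libraries.

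**Figure D5:**
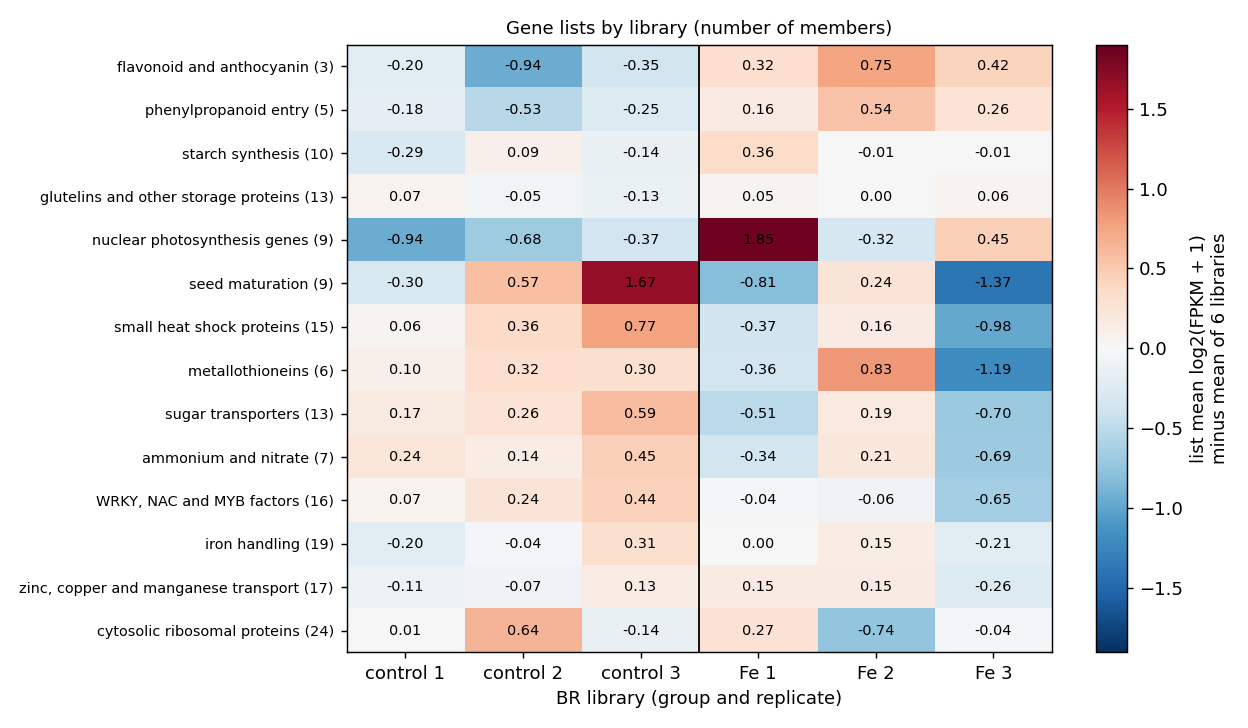
Mean log2(FPKM + 1) of 14 gene lists in each BR library, as a deviation from the list's mean over the 6 libraries (red higher, blue lower). The pigment lists are above 0 in all 3 Fe libraries and below 0 in all 3 controls, whereas seed maturation, sugar transporter and ammonium lists put Fe replicate 2 on the side of the controls.

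3 genes of nutrient transport and signalling fell. OsAMT3;2, an ammonium transporter, was 1.62, 1.45 and 2.01 FPKM in the control libraries and 0.804, 0.632 and 0.148 in the Fe libraries (log2 change -0.84 ± 0.16, adjusted p = 0.0105). The cytosolic glutamine synthetase gene OsGLN1;3 was 248, 258 and 452 against 72.6, 254 and 64.7 FPKM and did not pass (adjusted p = 0.0843), with Fe replicate 2 at the level of 2 controls. The list of 7 ammonium and nitrate genes had a median of -0.77. OsHAK27, a potassium transporter, was 2.18, 2.48 and 3.2 FPKM in the control libraries and 1.1, 1.17 and 0.44 in the Fe libraries (log2 change -0.94 ± 0.17, adjusted p = 0.00489), and OsPHR3, a factor of the phosphate starvation response, was 1.97, 3.88 and 5.84 FPKM in the control libraries and 0.58, 1.87 and 0.298 in the Fe libraries (log2 change -1.36 ± 0.29, adjusted p = 0.0196). They were the single calls among 16 potassium and 16 phosphate genes, whose medians were -0.08 and 0.20. OsHAK27 and OsAMT3;2 did not pass without Fe replicate 3 (adjusted p from 0.0562 to 0.112 in that fit). OsPHR3 did not pass without control replicate 2 or 3 or Fe replicate 1 or 3 (adjusted p from 0.0965 to 0.19 in those fits).

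55 of the 387 called genes have a short name, and the IDs in this paragraph, other than the new genes, were chosen after their values were seen. The largest fall of all was LOC4334489, at 125, 145 and 394 FPKM in the control libraries and 1.02, 36.9 and 0.998 in the Fe libraries (log2 change -5.18 ± 0.91, adjusted p = 0.00466). Fe replicates 1 and 3 were near 1 FPKM and replicate 2 was higher, still below every control. Within each group LOC4334489 and LOC4351911 also had the library order of the embryo markers. LOC4351911 was 9.15, 14.9 and 36.4 against 0.58, 3.1 and 0.153 FPKM (log2 change -3.22 ± 0.47, adjusted p = 0.00103). Among rises, LOC4325987 was 1.3, 0 and 0.147 against 6.84, 6.63 and 9.52 FPKM (log2 change 2.63 ± 0.27, adjusted p = 6.25e-05), LOC4327827 0.989, 0.276 and 0.301 against 9.57, 4.21 and 13.2 FPKM (log2 change 2.63 ± 0.26, adjusted p = 4.09e-05) and LOC4327831 1.08, 0.447 and 0.705 against 6.31, 6.91 and 6.35 FPKM (log2 change 2.12 ± 0.18, adjusted p = 5.78e-06). LOC4325030 was below 0.1 FPKM in every control and above 1 in every Fe library (0.0504, 0 and 0 against 2.2, 1.23 and 3.64 FPKM), and 1 gene was found with that pattern. AOS3 and OsHox22, a homeobox factor at 1.0, 1.02 and 1.91 against 0.0437, 0.046 and 0.045 FPKM (adjusted p = 0.0578), had the reverse pattern. LOC4351911, LOC4325987, LOC4327827, LOC4327831 and LOC4325030 kept an adjusted p below 0.05 in all 6 fits that left out 1 BR library. LOC4334489 did not pass without Fe replicate 1 or 3 (adjusted p from 0.0533 to 0.0542 in those fits).

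The 1082 members that are new genes of the assembly held 25 rises and 36 falls, where 1.27% of all members rose and 1.46% fell. The 6 with the smallest p all passed in every fit with a library left out. NewGene_369, NewGene_273 and NewGene_272 reached an FPKM of 1 in Fe libraries only, and NewGene_5361 and NewGene_5360 in control libraries only. These genes met the rule for members through that group alone, which by itself can make them differ. NewGene_369 was 0.247, 0 and 0.489 FPKM in the control libraries and 6.83, 9.47 and 8.29 in the Fe libraries (log2 change 2.89 ± 0.16, adjusted p = 1.94e-08), the smallest p of the comparison. NewGene_5361 was 2.37, 3.14 and 3.43 against 0.536, 0.246 and 0 FPKM and NewGene_5360 2.81, 3.41 and 4.16 against 0.329, 0.831 and 0 FPKM, with log2 changes of -1.67 and -1.72. NewGene_273 was 0, 0 and 0 against 0.845, 1.53 and 1.83 FPKM, NewGene_272 0.14, 0 and 0 against 1.51, 0.987 and 1.17 FPKM and NewGene_7079 7.62, 7.43 and 10.8 against 2.2, 2.89 and 1.13 FPKM. NewGene_273 and NewGene_272 had changes of 1.24 and 1.08 and NewGene_7079 of -1.67. The consecutive numbers of 2 of these pairs are as given by the assembly, and whether the members of a pair are parts of 1 transcript was not tested.

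Some called genes were neighbours on the chromosome. In the order of protein-coding genes of the RefSeq assembly given with the data, which is not the build of the files and was used for order alone, 10 of 6754 pairs of adjacent members were both called, from 318 called genes with a place in that order, and the 2 genes had the same direction in all 10. Whether this number exceeds what the share of called genes gives was not tested. 3 pairs rose and 7 fell. LOC4343812, LOC4343813 and LOC4343814 stand in a row and were 4.52, 6.69 and 10.3 against 0.871, 0.967 and 1.8 FPKM, 51.2, 193 and 256 against 10.6, 25.5 and 13.2 FPKM and 12.3, 16.1 and 17.8 against 4.11, 5.98 and 5.2 FPKM. LOC4334013, LOC4334014 and LOC4334015 form another row at 69.5, 92.8 and 158 against 15.7, 38.4 and 11.6 FPKM, 7.81, 6.56 and 8.51 against 1.11, 3.9 and 1.02 FPKM and 22.3, 18.3 and 37.3 against 1.09, 6.69 and 1.35 FPKM. In both rows the middle and outer genes fell together, with log2 changes from -3.07 to -1.43. OsC3H9 has LOC4325915 beside it, which was 0.461, 0.0567 and 0.0396 against 2.49, 2.03 and 4.18 FPKM (log2 change 1.70 ± 0.19, adjusted p = 1.07e-04). The files do not say whether counting used strand, so reads of overlapping neighbours cannot be told apart. LOC4343813, LOC4334015 and LOC4325915 kept an adjusted p below 0.05 in all 6 fits that left out 1 BR library. LOC4343812 did not pass without Fe replicate 1 (adjusted p = 0.0533 in that fit). LOC4334013 did not pass without Fe replicate 1 or 3 (adjusted p from 0.0535 to 0.0645 in those fits). LOC4334014 did not pass without control replicate 2 or Fe replicate 1 or 3 (adjusted p from 0.0571 to 0.134 in those fits). LOC4343814 did not pass without control replicate 2 or 3 or Fe replicate 1 or 3 (adjusted p from 0.0927 to 0.197 in those fits).

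9 genes had been chosen by the study for qPCR, and their FPKM can be read in these libraries. LOC4343353 was 1.25, 0.259 and 0.0944 FPKM in the control libraries and 4.51, 3.42 and 5.04 in the Fe libraries (log2 change 1.86 ± 0.27, adjusted p = 9.89e-04), and its neighbour LOC4343352 was 1.04, 0.898 and 1.87 against 2.46, 3.07 and 2.44 FPKM (log2 change 0.71 ± 0.16, adjusted p = 0.031). LOC4340373 was 12.8, 5.07 and 6.19 FPKM in the control libraries and 18.4, 23.8 and 22.6 in the Fe libraries (log2 change 1.41 ± 0.25, adjusted p = 0.00442) and LOC4343325 1.77, 0.808 and 0.33 against 2.39, 3.05 and 1.87 FPKM (log2 change 0.85 ± 0.21, adjusted p = 0.0417). LOC4330775 was the single fall that passed, at 4.34, 7.99 and 8.34 FPKM in the control libraries and 0.432, 2.81 and 0.747 in the Fe libraries (log2 change -1.85 ± 0.38, adjusted p = 0.0157). LOC4333312 and LOC4332719 were higher in every Fe library, and LOC4336505 and LOC4341944 lower in every one, without passing (adjusted p = 0.112, 0.103, 0.23 and 0.636). LOC107276307 overlapped between groups at 1.08, 0.311 and 0.238 against 2.61, 1.01 and 5.31 FPKM. LOC4343353 and LOC4340373 kept an adjusted p below 0.05 in all 6 fits that left out 1 BR library. LOC4343325 and LOC4330775 did not pass without control replicate 2 or 3 or Fe replicate 1 or 3 (adjusted p from 0.0681 to 0.188 in those fits). LOC4343352 did not pass without control replicate 1 or 2 or Fe replicate 1 or 3 (adjusted p from 0.0795 to 0.201 in those fits).

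Calls were spread over all levels. Of 3878 members with a mean below 2 FPKM 63 rose and 74 fell, which is 3.53%. The share was 2% of 4191 members from 2 to 5 FPKM, 2.4% of 4380 from 5 to 20, 3.55% of 1493 from 20 to 100 and 2.91% of 275 above 100. Falls outnumbered rises below 20 FPKM. From 20 to 100 FPKM 36 genes rose and 17 fell.

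The Fe response of BR was set against that of RR, whose controls and Fe libraries are other plants of another variety at other days, so that variety and day cannot be told apart. The difference of responses passed an adjusted p of 0.05 in limma for 1 gene against RR at 15 DAF (0.00703% of 14217 genes) and for 6 against RR at 20 DAF (0.0422%). At an unadjusted p below 0.05 447 genes (3.14%) had a higher and 1217 (8.56%) a lower response in BR than in RR at 15 DAF, and against RR at 20 DAF these were 619 (4.35%) and 642 (4.52%). 2 of the 6 genes (0.0141% of members) also met the DEG thresholds. The pigment genes that rose in BR were not shown to respond otherwise in RR. For LOC4325716 the BR change exceeded that of RR by 1.85 at 15 DAF and by 2.24 at 20 DAF (adjusted p = 0.419 and 0.151), for LOC4351321 by 2.99 and 2.34 (0.107 and 0.0748) and for LOC4330037 by 1.68 and 1.99 (0.391 and 0.0961). OsSWEET15 differed by -2.51 and -2.61 (0.431 and 0.313) and OsNramp1 by -2.05 and -1.75 (0.44 and 0.494). OsCslA4 did pass against RR at 20 DAF, by 2.32 (adjusted p = 0.0196), and was at or below 0.394 FPKM in all 11 RR libraries. That difference largely repeats its change of 2.35 in BR.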

How the data were processed

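The deposited table holds FPKM values per gene, which the authors made by aligning reads to the rice genome IRGSP-1.0 with HISAT2 and assembling them with StringTie. No counts or library depths were used here, so no counting intervals are given. The day, and that the Fe libraries had the 0.1% spray, come from the study's methods. Groups came from the sample titles.

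Values were analysed as log2(FPKM + 1). Genes with an FPKM of at least 1 in at least 2 of the 17 libraries (19774) were fitted in 1 limma model (limma 3.58.1, R 4.3.3) with 6 groups and a variance factor for each group, and p-values were adjusted over all of them by Benjamini-Hochberg. RR control replicate 1 at 15 DAF was not analysed here. The fit was tested on simulated data. Each result was recomputed with another pseudocount, other filters, scalings, variance models, samples and thresholds, with a replicate block, and without each BR library.

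Gene names came from the RefSeq table of assembly ASM3414082v1, which matched 27622 genes. Its positions were used only for the order of neighbouring genes, and no coordinates are given. Lists rest on short names, so unnamed family members are missing from them. Genes named are the 12 largest non-overlapping rises and falls with a short name, 4 genes per list (lowest p), all iron handling genes, the 10 most abundant genes, the qPCR targets and pathway genes of the study, cell type markers and the 6 new genes with the smallest p. From these sets a part is printed, and CHARK, SNL6, URH2 and the unnamed genes were added after their values were seen. The members and lists were chosen with earlier results of these data known. None of the 7 aleurone markers was matched. Replicate numbers were not taken to pair the samples, since the study describes a completely randomized design. Exact permutation tests of sums are two-sided.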

Additional observations from a re-analysis of the deposited data

Results flagged for a closer look

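For 6 genes the Fe response of BR at 10 DAF differed from that of RR by the interaction term of the limma model, at an adjusted p below 0.05. Variety and day differ together in this contrast and cannot be told apart. NewGene_369 responded more in BR by 2.85 on the log2 scale than in RR at 15 DAF (adjusted p = 0.00435) and by 2.89 than in RR at 20 DAF (adjusted p = 0.000114). It was at or below 0.0836 FPKM in all 11 RR libraries. Against RR at 20 DAF the difference was 2.63 for LOC4327827 (adjusted p = 0.0406), 2.36 for LOC4327831 (adjusted p = 0.00378) and 2.32 for OsCslA4 (adjusted p = 0.0196), which were below 1 FPKM in all RR libraries. NewGene_5361 differed by -1.67 (adjusted p = 0.0328) and was at 0 in every RR library, where a fall could not have shown. With such low levels in RR, the differences given so far largely repeat the changes in BR. NewGene_861 differed by -2.92 (adjusted p = 0.0408), and it was expressed in all RR libraries, between 4.41 and 77.7 FPKM.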

How the results depend on the processing

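Against 66 upregulated and 75 downregulated genes, the counts were 18 and 30 with a filter at an FPKM of 5, 42 and 45 with median centring, 15 and 13 without the variance factor, 10 and 8 with a pseudocount of 0.1, and 0 and 0 in the fit of the 6 BR libraries, with or without the robust prior, which was chosen after seeing the data. At an adjusted p below 0.05 they were 180 and 207 with no fold threshold and 103 and 163 at a fold change of 2. Without 1 BR library they ranged from 15 (Fe replicate 3) to 309 (Fe replicate 2) and from 12 to 350. Signs of the 387 called genes were kept under every alternative that gave a value. The cause of these shifts was not tested. Of the medians of 29 gene lists, 9 took both signs over the alternatives (among them iron handling, storage proteins and JAZ genes), 17 kept their sign and moved by over 1.5 times under at least 1 of them, and 3 stayed within that. The phenylpropanoid median ran from 0.50 to 0.87, the flavonoid median from 0.70 to 1.25, the sugar transporter median from -0.89 to -0.35, the seed maturation median from -1.93 to -0.74 and the chitinase median from -1.58 to -0.08.

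With replicate number as a block the DEG counts were 5 and 0. Residuals of same-numbered control and Fe libraries correlated at 0.05, -0.378 and -0.136. Those of differently numbered libraries ran from -0.32 to 0.339. Residuals were centred within each group of 3 libraries, so these values are tied to each other and cannot exclude a pairing.

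For the difference from RR at 15 DAF, 1 gene met the DEG thresholds, 0 with the filter at 5 or a pseudocount of 0.1, 93 with the replicate block, and 1 to 5 without 1 BR library. For RR at 20 DAF the count of 2 became 0 with that filter, that pseudocount or the replicate block, 1 with median centring or without the variance factor, 6 with no filter or quantile normalization, and 1 to 20 without 1 BR library.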
